A study of Mus musculus with 26 samples.

Results

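A set of 10 genes, of the 56562 gene identifiers counted, were followed because they came close to an on-off difference between 2 versions of a mouse colon adenocarcinoma line, MC38/gp100 with intact Mtap (wild type, WT) and with Mtap knocked out (KO). Cntn3, Wdr49, Lyplal1, Tspan15 and Hc were low in the KO line, and Brinp3, P2ry14, Aldh1a1, Mme and Rgs18 were high in it. They were chosen on the levels of the 2 lines with the solvent DMSO, so those levels are given as a description, without a test. All 10 passed the filter on low counts, which left 14835 genes for testing.

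MC38/gp100 cells carry the melanoma antigen gp100. Both lines received DMSO, 0.5 uM GSK3326595 or 0.5 uM MRTX1719 for 5 days, in 3 libraries per group, except WT with MRTX1719, which had 2 (replicates 1 and 3). pmel-1 T cells from transgenic mice received the same agents for 3 days, in 3 libraries per group. The labels do not say whether the KO line is 1 clone, nor whether replicates are separate cultures, so the spread that p-values measure here may be technical; in 2 of the 3 GSK3326595 replicates the treatment label ends in another digit, while the titles agree.

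Mtap encodes methylthioadenosine phosphorylase, which clears methylthioadenosine, a by-product of polyamine synthesis that inhibits the arginine methyltransferase PRMT5. GSK3326595 inhibits PRMT5 without needing this metabolite, whereas MRTX1719 binds PRMT5 together with it. The 10 genes belong to unrelated families and are best known from neurons, the liver, blood cells and differentiating epithelium, and none of them is a textbook gene of the methionine pathway.

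The MC38 libraries held 19302768 to 27786226 counts each, and the T cell libraries 13813406 to 20772699. Levels are given in CPM, the usual depth-scaled counts, here relative to TMM-scaled library totals. Mtap itself was at 388 to 397 CPM in WT and 264 to 276 CPM in KO libraries with DMSO, so KO libraries kept much of its RNA. Of 11 markers of intestinal epithelium, Epcam and Cdx2 had no count in either line with DMSO and Cdx1 and Cldn7 had 0 in WT and 1 in KO cells. Cdh1 had 19 and 28 counts over the groups and Krt19 10 and 13, and Krt8 held nearly all of the summed level. This epithelial sum was 22.31 to 24.98 CPM in WT and 14.64 to 15.99 CPM in KO libraries with DMSO. Krt8 was called lower in KO cells with DMSO. With GSK3326595 the epithelial sum was 39.11 to 40.89 CPM in WT and 59.92 to 62.63 CPM in KO libraries. With MRTX1719 it was 24.74 to 25.3 CPM in WT and 59.33 to 60.99 CPM in KO libraries. Of the labelled colon epithelium, Epcam and the intestinal factors Cdx1 and Cdx2 were thus at or near 0, while keratin 8 was present. The summed level of 6 fibroblast markers, led by Col3a1, was 3008 to 3032 CPM in WT and 8595 to 8980 CPM in KO libraries with DMSO. It was 3095 to 3125 in WT and 6369 to 6598 CPM in KO libraries with GSK3326595, and 2774 to 2808 and 4766 to 4843 CPM with MRTX1719. This sum moved with the difference between the lines and, in the KO line, with the inhibitors, but its members did not all do so. With DMSO Dcn, Pdgfra, Col1a1 and Col3a1 were called higher in KO cells, and Lum and Thy1 were not called. In the KO line with GSK3326595 Col3a1, Dcn and Pdgfra had lower means than with DMSO, and Col1a1, Lum and Thy1 higher ones. The part of the epithelial and fibroblast sums in the results below was not tested. In such bulk RNA, fewer cells that express a gene and less RNA per cell cannot be told apart.

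**Figure D1:**
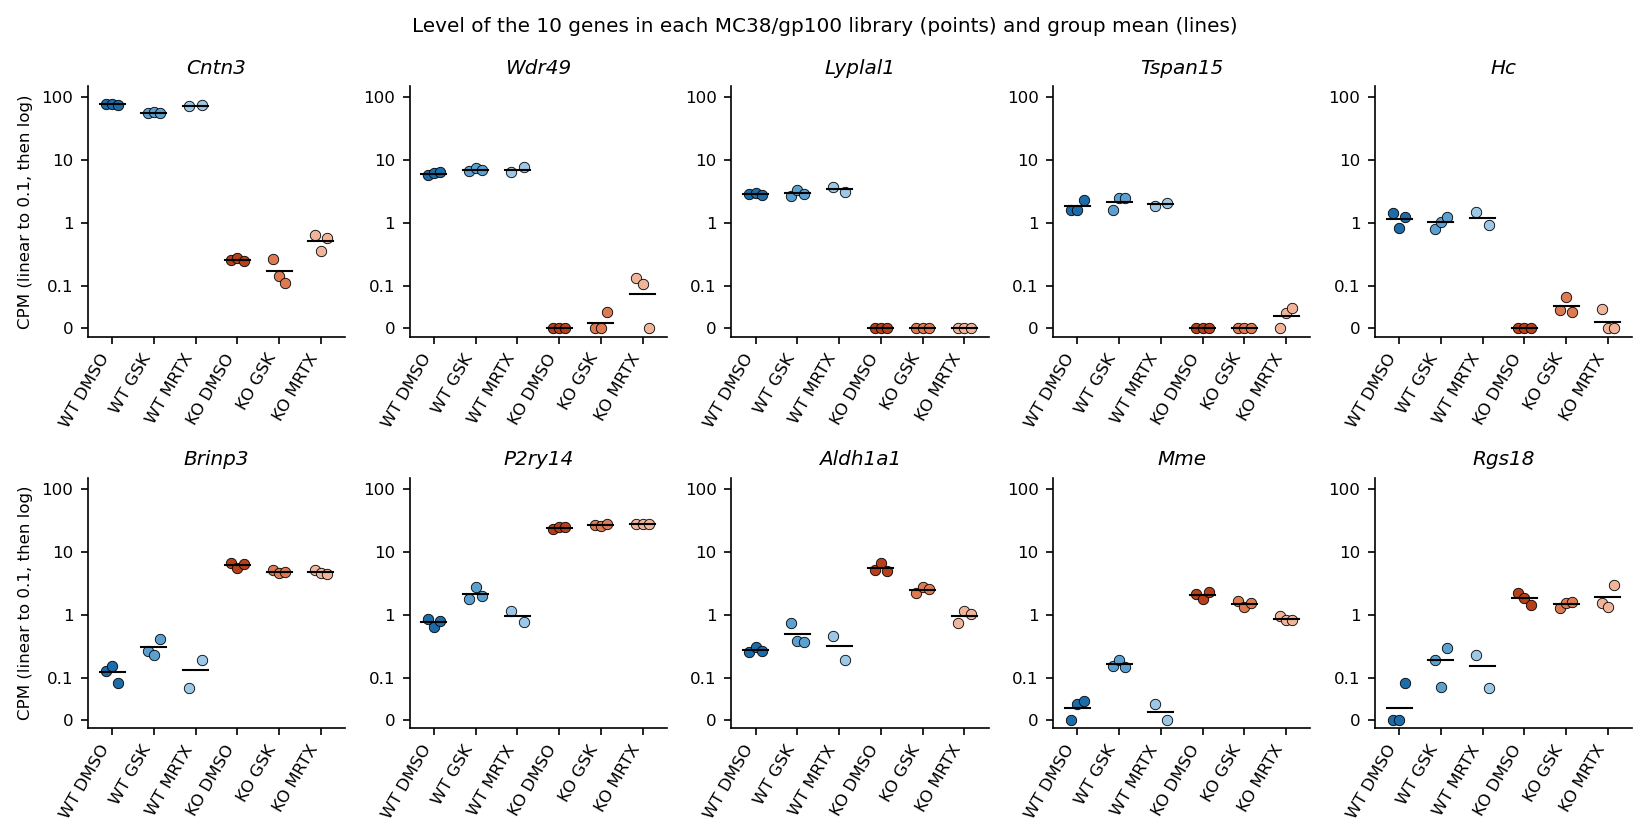
Each panel shows 1 gene, with the CPM of each of the 17 MC38 libraries as a point and the group mean as a line (linear axis to 0.1 CPM, logarithmic above). With the same agent, WT and KO libraries do not overlap for any of the 10 genes; across agents, Aldh1a1 meets at 0.731 CPM in 1 KO library with MRTX1719 and 1 WT library with GSK3326595; the 5 genes of the upper row lie at or near 0 in the KO line, and Aldh1a1 and Mme step down from DMSO to GSK3326595 to MRTX1719 within it.

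Cntn3, on chromosome 6, encodes contactin 3, an immunoglobulin-type adhesion protein anchored in the membrane of neurons. With DMSO it had 1831, 2023 and 1742 counts in the WT libraries and 5, 7 and 6 in the KO libraries. Its mean level was 76.6 ± 0.819 CPM in WT and 0.263 ± 0.0181 CPM in KO cells (SD, n = 3 each), a ratio of 291 with a 95% counting interval of 184 to 491. Such intervals and the bounds below cover counting error only. It was the most abundant of the 5 genes low in the KO line and the only one of them with counts in all 9 KO libraries.

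The other genes low in the KO line were lost down to 0 counts in the KO libraries with DMSO. Wdr49, on chromosome 3, encodes a WD-repeat protein and had 136, 165 and 147 counts in the WT libraries and 0 in each KO library. Lyplal1, on chromosome 1, encodes a serine hydrolase related to lysophospholipases and acyl-protein thioesterases. It had 70, 80 and 64 counts in WT and 0 in each KO library. Tspan15, on chromosome 10, encodes a tetraspanin that escorts the sheddase ADAM10 to the cell surface and went from 39, 43 and 53 counts to 0. Hc, on chromosome 2, encodes complement component C5 and went from 34, 22 and 29 counts to 0. Against a floor of 3 counts over the KO group, Wdr49 was at least 140-fold lower, Lyplal1 at least 66.7-fold, Tspan15 at least 42.1-fold and Hc at least 26.5-fold lower.

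The promoters of the genes low in the KO line did not share a base composition. For 9 of the 10 genes the RefSeq table (GRCm38.p6, an older build than the GRCm39 of the counts) holds 1 to 4 windows from 250 bases before to 50 bases after a transcript start; Rgs18 was not matched. Cntn3 and Tspan15 are shown because they are the extremes among the lost genes. Mme is shown because its windows 2 and 3 hold 32 and 29 CpG, beside 29 for Tspan15, although the gene was high in the KO line. The 250 bases before the start are printed 5′ to 3′ on the gene's strand, with each CpG dinucleotide in capitals: Cntn3 at chr6:102464668-102464917 on the minus strand, Tspan15 at chr10:62231219-62231468 on the minus strand and the second window of Mme at chr3:63295622-63295871 on the plus strand.
Cntn3: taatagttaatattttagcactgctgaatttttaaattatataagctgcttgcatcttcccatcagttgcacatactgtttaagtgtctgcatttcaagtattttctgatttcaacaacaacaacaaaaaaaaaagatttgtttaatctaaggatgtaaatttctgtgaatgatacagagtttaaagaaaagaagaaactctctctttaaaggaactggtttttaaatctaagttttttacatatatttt
Tspan15: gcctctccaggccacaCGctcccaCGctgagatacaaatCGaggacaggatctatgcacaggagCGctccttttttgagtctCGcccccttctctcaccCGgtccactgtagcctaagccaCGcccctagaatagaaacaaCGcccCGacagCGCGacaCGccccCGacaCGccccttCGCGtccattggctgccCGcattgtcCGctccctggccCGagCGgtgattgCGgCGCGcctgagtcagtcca
Mme: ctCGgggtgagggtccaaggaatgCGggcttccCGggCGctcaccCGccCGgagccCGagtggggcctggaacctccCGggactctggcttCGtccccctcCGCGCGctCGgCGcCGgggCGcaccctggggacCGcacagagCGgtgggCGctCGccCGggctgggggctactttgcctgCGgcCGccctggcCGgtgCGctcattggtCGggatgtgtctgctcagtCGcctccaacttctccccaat
The Cntn3 window held no CpG and 27.7% G and C, and the Tspan15 window held 29 CpG and 66.3% G and C, each over its full 300 bases. The ratio of observed to expected CpG was 0.00 for Cntn3, 0.33 for Hc, 0.42 for Wdr49, 0.83 for Lyplal1 and 0.89 for Tspan15. The median was 0.38 over all 32851 windows and 0.74 over the 13137 windows of tested genes. Among the genes high in the KO line, P2ry14 had ratios from 0.07 to 0.25 over 4 windows, Aldh1a1 0.06 and 0.21, and Brinp3 0.21 to 0.54 over 3. The first Mme window had a ratio of 0.31 and the other windows 0.80 and 0.77. The letters TATAAA, searched on both strands, occurred in the windows of Wdr49 and Hc and in window 4 of P2ry14. They occurred in 13.6% of all windows and in 7.56% of the windows of tested genes. This is a match of letters and not a mapped site.

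P2ry14 was the most abundant gene of the set high in the KO line. It lies on chromosome 3 and encodes a receptor for UDP-glucose and other UDP sugars. Its counts with DMSO were 20, 17 and 18 in WT and 451, 605 and 584 in KO libraries, or 0.757 ± 0.103 and 23.9 ± 0.696 CPM (SD, n = 3 each), a ratio of 31.9 (95% counting interval 24.4 to 42.5). P2ry14 lies within Med12l on the opposite strand. Med12l, a gene of the Mediator complex, had 0.639 CPM in WT and 1.62 CPM in KO cells with DMSO. Whether counting used strand is not given in the sources used here; without it, the pair's reads cannot be told apart.

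Brinp3 had a larger ratio than P2ry14 and Aldh1a1 a smaller one, at lower counts. Brinp3, on chromosome 1, is named as inducible by BMP and retinoic acid in neural cells. It had 3, 4 and 2 counts in WT and 127, 135 and 152 in KO libraries, a ratio of 49.2 (95% counting interval 25.7 to 108). Aldh1a1, on chromosome 19, encodes a retinaldehyde dehydrogenase that makes retinoic acid. It had 6, 8 and 6 counts in WT and 99, 166 and 119 in KO libraries, a ratio of 20.5 (13.1 to 34.0). Its near-identical neighbour Aldh1a7 had 2 counts over the WT and 21 over the KO group with DMSO, so a small part of the reads may be shared.

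Mme and Rgs18 were close to silent in WT cells. Mme, on chromosome 3, encodes neprilysin, a membrane metallopeptidase that cleaves peptide hormones, and had 0, 1 and 1 counts in WT and 41, 44 and 55 in KO libraries. Rgs18, on chromosome 1, encodes a regulator of G protein signalling of blood cells, above all platelets, and had 0, 0 and 2 counts in WT and 43, 45 and 35 in KO libraries. The ratios were 74.9 (95% counting interval 20.3 to 624) for Mme and 65.8 (17.8 to 549) for Rgs18, and without WT replicate 3 the WT count of Rgs18 was 0. Of 6 megakaryocyte and platelet markers, Gp9 and Gp1bb had no count in any of the 6 groups, and the summed level with DMSO was 3.56 to 4.40 CPM in WT and 4.76 to 5.18 CPM in KO libraries, most of it Itga2b. With DMSO Ppbp had 12 counts in WT and 42 in KO cells and was called higher, while Itga2b, at 281 and 288, was not called. Treml1, at 0 and 4 counts, and Pf4, at 2 and 1, were under the filter. Of 11 leukocyte markers, Ms4a1 and Adgre1 had no count in either line with DMSO, and the summed level was 20.6 to 21.7 CPM in WT and 16.6 to 17.9 CPM in KO libraries, most of it Cd68. Cd68 and Lyz2, the latter at 79 counts in WT and 18 in KO cells, were called lower in KO cells. Ptprc, at 52 and 71 counts, and Cd8a, at 21 and 23, were not called.

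A count of all genes placed the 10 in the whole table. With DMSO, 18 genes had at most 3 counts over the KO group and at least 1 CPM in WT cells, among them Wdr49, Lyplal1, Tspan15 and Hc. Only 2 genes had the reverse pattern, Mme and Rgs18. The 5 highest of the 18 in WT cells were Pard3b, a cell polarity gene, at 10.0 CPM, Wdr49 at 6.13 CPM, the receptor phosphatase gene Ptprk at 4.83 CPM, the lysophospholipid acyltransferase gene Lpcat2 at 4.48 CPM and Lyplal1 at 2.92 CPM. Off genes stayed at or under 3 counts in the KO line for 10 of the 18 with GSK3326595 and for 10 with MRTX1719; among the 4 followed here it was 3 and 3, and among the other 14 it was 7 and 7. With the bound set at 0 counts the 18 became 5 and the 2 became 0. With at least 5 CPM in the other line they became 2 and 0.

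**Figure D2:**
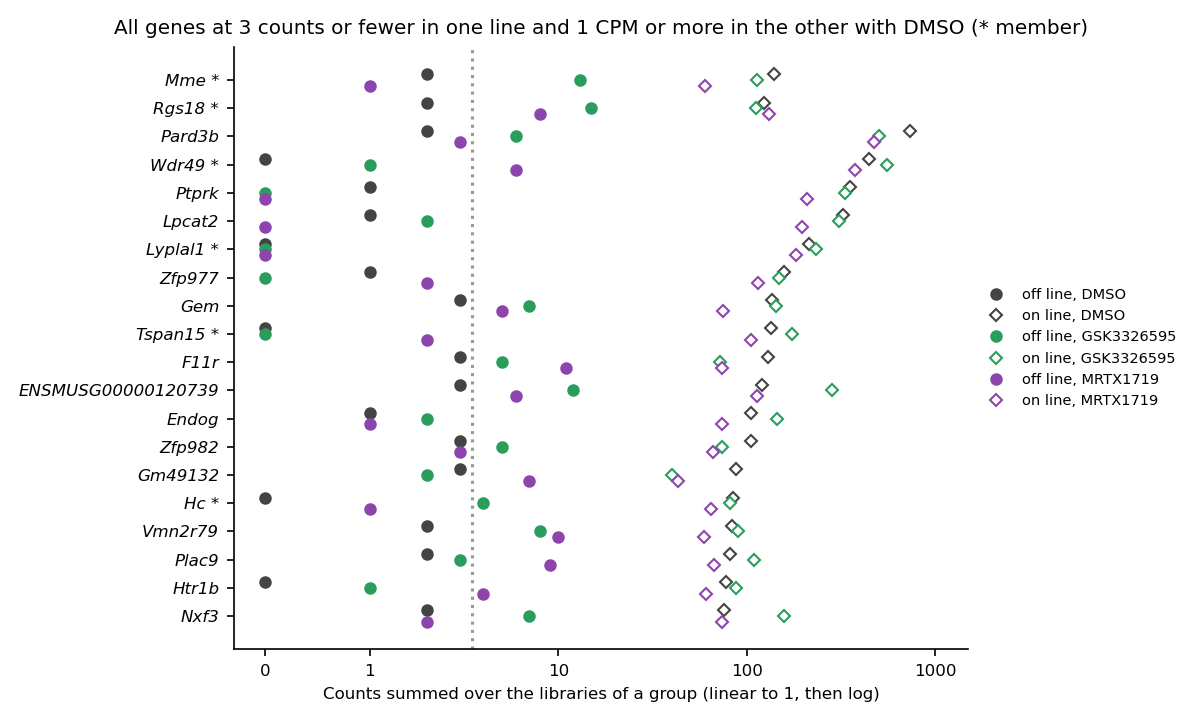
Counts summed over the libraries of a group for the 20 genes at 3 counts or fewer in 1 line and at 1 CPM or more in the other with DMSO (linear axis to 1, logarithmic above). Filled points are the line in which the gene was off and open diamonds the line in which it was on, the dotted line marks the bound of 3 counts, and WT with MRTX1719 sums 2 libraries; stars mark Mme, Rgs18, Wdr49, Lyplal1, Tspan15 and Hc.

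The split between the lines was then measured in the inhibitor libraries, which did not choose the genes. The lines, however, are the same ones whose difference chose them. Wdr49, Lyplal1, Tspan15, Hc, Brinp3, Mme and Rgs18 also passed the filter only through the line where they are high. A call in the same direction was thus likely beforehand, and the calls between the lines are given as a description. All 10 genes differed between the lines in the same direction with GSK3326595 and with MRTX1719, and with the same agent no WT library overlapped a KO library for any of them. The 5 low and the 5 high genes passed an adjusted p of 0.05 in each case (edgeR's quasi-likelihood test, adjusted by Benjamini-Hochberg across the 14835 genes, the source of every edgeR adjusted p in MC38 cells). Differences between the lines were common: of all genes tested, 35.7% were called higher and 37.1% lower in KO cells with GSK3326595, and 36.8% and 38.3% with MRTX1719. With DMSO, the choosing contrast, 36.2% were called higher and 37.0% lower.

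The genes low in the KO line stayed at or near 0 there. Lyplal1 had 0 counts in all 9 KO libraries, against 69, 86 and 79 counts in WT with GSK3326595 and 100 and 83 with MRTX1719, and was at least 75.0-fold and 80.5-fold lower. Tspan15 had 0 counts in the KO libraries with GSK3326595, where it was at least 55.4-fold lower, and 0, 1 and 1 with MRTX1719. Hc had 1, 2 and 1 counts in the KO libraries with GSK3326595 and 1, 0 and 0 with MRTX1719, against 21 to 40 in the 5 WT libraries. Wdr49 had 0, 0 and 1 counts with GSK3326595 and 3, 3 and 0 with MRTX1719, against 170 to 205 in those WT libraries. Cntn3 was 332-fold lower with GSK3326595 (95% counting interval 194 to 624) and 140-fold lower with MRTX1719 (101 to 200.5).

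The genes high in the KO line kept their direction, with ratios that varied more. P2ry14 was 12.3-fold higher in KO cells with GSK3326595 (95% counting interval 10.5 to 14.5) and 28.9-fold higher with MRTX1719 (21.9 to 39.1). Brinp3 was 15.7-fold (10.4 to 24.9) and 35.6-fold (17.1 to 89.3) higher. Aldh1a1 had the smallest ratios of the 10 genes under the inhibitors, 5.10 (3.60 to 7.39) with GSK3326595 and 3.03 (1.76 to 5.51) with MRTX1719. Mme was 9.04-fold higher with GSK3326595 (5.08 to 17.5), and with MRTX1719 it rested on 1 WT count, at 45.5-fold (7.86 to 1826). Rgs18 was 7.77-fold (4.51 to 14.3) and 12.4-fold (6.12 to 29.4) higher.

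**Figure D3:**
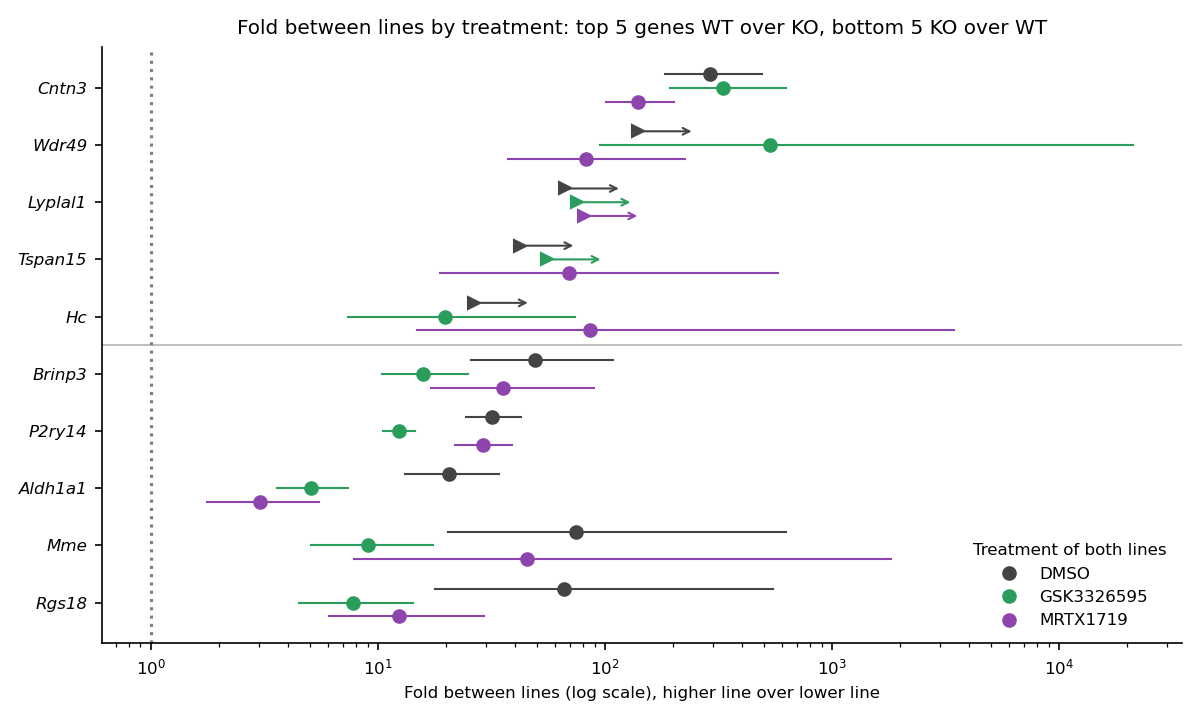
Ratio of the level in the higher line to that in the lower line (log axis) with DMSO, GSK3326595 and MRTX1719, with the 95% counting interval as a bar; arrowheads are lower bounds where the lower group had 0 counts. All ratios and bounds lie above 1, and those of Aldh1a1 go from 20.5 to 5.10 to 3.03.

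Within the KO line, Aldh1a1 fell with both inhibitors, and further with MRTX1719. The contrasts against DMSO share the DMSO libraries that chose the genes, whereas MRTX1719 against GSK3326595 does not. The high level of Aldh1a1 in KO cells with DMSO is part of what chose it, which by itself favours a fall. Aldh1a1 counts in the KO libraries were 99, 166 and 119 with DMSO, 49, 74 and 68 with GSK3326595 and 16, 31 and 21 with MRTX1719. The levels were 5.58 ± 0.990, 2.50 ± 0.285 and 0.962 ± 0.210 CPM (SD, n = 3 each) and the 3 groups did not overlap. The log2 fold change was -1.16 ± 0.16 with GSK3326595 (SE; edgeR adjusted p = 6.43e-11) and -2.52 ± 0.22 with MRTX1719 (2.88e-25). MRTX1719 against GSK3326595 gave -1.36 ± 0.23 (edgeR adjusted p = 2.89e-08).

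Mme followed the same order in the KO line. Its counts were 41, 44 and 55 with DMSO, 37, 36 and 40 with GSK3326595 and 21, 22 and 17 with MRTX1719, or 2.05 ± 0.253, 1.50 ± 0.162 and 0.863 ± 0.0839 CPM (SD, n = 3 each), again without overlap. The high level with DMSO is also what chose the gene, which by itself favours a fall from it. Mme fell with MRTX1719, with a log2 fold change of -1.25 ± 0.26 (edgeR adjusted p = 4.05e-06). It was lower with MRTX1719 than with GSK3326595, by -0.79 ± 0.27 (edgeR adjusted p = 0.00691). With GSK3326595 the log2 difference of -0.46 ± 0.22 did not pass (edgeR adjusted p = 0.0712). It passed with only the compared groups in the fit (0.0429) and with a filter of 1 CPM in 3 libraries (0.0482). Under DESeq2 the difference between the inhibitors lost its call (adjusted p = 0.0503).

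Brinp3, P2ry14 and Rgs18 moved little in the KO line. They were chosen for a high level there with DMSO, which by itself favours a fall. Brinp3 fell from 6.09 ± 0.558 CPM with DMSO to 4.79 ± 0.271 with GSK3326595 and 4.72 ± 0.372 with MRTX1719, with log2 fold changes of -0.34 and -0.36 (edgeR adjusted p = 0.0134 and 0.00705; 0.114 and 0.0772 under DESeq2). The first of these calls was lost without KO DMSO replicate 1 or 3 or KO GSK3326595 replicate 2 (edgeR adjusted p 0.0585 to 0.0657). P2ry14 rose from 23.9 ± 0.696 CPM to 26.7 ± 1.11 and 27.4 ± 0.335, with log2 fold changes of 0.15 ± 0.060 and 0.19 ± 0.060 (edgeR adjusted p = 0.0225 and 0.00314). The GSK3326595 call was lost under DESeq2 (adjusted p = 0.131), with no filter on low counts, with unscaled library totals, and without KO DMSO replicate 1 or KO GSK3326595 replicate 3. Rgs18 was at 1.83 ± 0.379, 1.47 ± 0.162 and 1.94 ± 0.912 CPM, with overlapping groups and no call against DMSO.

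Of the genes low in the KO line, Cntn3, Wdr49 and Tspan15 had their highest counts there with MRTX1719, Tspan15 with only 2 over the group. Cntn3 had 5, 7 and 6 counts with DMSO, 6, 4 and 3 with GSK3326595 and 14, 10 and 12 with MRTX1719, which left it 140-fold under its WT level. The log2 fold change with MRTX1719 was 0.96 ± 0.41 (edgeR adjusted p = 0.0246), and that against GSK3326595 was 1.56 ± 0.45 (0.000775). The low level of Cntn3 in KO cells with DMSO is part of what chose it, which by itself favours a rise. The call against DMSO was lost with no filter on low counts (0.0662) and without KO DMSO replicate 3 or KO MRTX1719 replicate 1 or 3 (0.0634 to 0.108). Wdr49 had 0 counts with DMSO and 6 with MRTX1719. It passed the filter only through the WT libraries and was chosen for its low level with DMSO in the KO line, so its call there is not read. In all, 3 of the 10 genes were called with GSK3326595 in the KO line, where 52.8% of all genes were, and 6 of 10, Wdr49 among them, with MRTX1719, where 70.5% were; between the inhibitors it was 3 of 10 beside 53.2%.

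In the WT line P2ry14 rose with GSK3326595 from its low level. The low level with DMSO is also what chose the gene. P2ry14 counts were 20, 17 and 18 with DMSO, 46, 72 and 53 with GSK3326595 and 30 and 20 with MRTX1719. The level rose from 0.757 ± 0.103 to 2.17 ± 0.533 CPM with GSK3326595, without overlap, by 1.52 ± 0.23 on the log2 scale (edgeR adjusted p = 6.92e-10), which is still far under the 23.9 CPM of the KO line. It was lower with MRTX1719 than with GSK3326595, by -1.19 ± 0.24 (edgeR adjusted p = 4.83e-06). Mme had 0, 1 and 1 counts with DMSO, 4, 5 and 4 with GSK3326595 and 1 and 0 with MRTX1719. Rgs18 had 0, 0 and 2, then 5, 2 and 8, and 6 and 2 counts, and Brinp3 had 3, 4 and 2, then 7, 6 and 11, and 2 and 5 counts.

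Mme, Rgs18 and Brinp3 passed the filter only through the KO line, where they are high, and were chosen for their low level in WT cells with DMSO, so their calls with GSK3326595 are given as a description. The ratios to DMSO were 6.01 for Mme (95% counting interval 1.36 to 54.9), 6.93 for Rgs18 (1.61 to 62.5) and 2.46 for Brinp3 (1.11 to 6.03), with edgeR adjusted p = 0.0198, 0.0161 and 0.0453. Under DESeq2 the calls of Mme and Brinp3 were lost (adjusted p = 0.0728 and 0.0829). Leaving out 1 library ended the call of Mme in 2 cases (WT DMSO replicate 1, WT GSK3326595 replicate 2), of Rgs18 in 3 (WT DMSO replicates 1 and 2, WT GSK3326595 replicate 3) and of Brinp3 in 5 of 6 (all but WT GSK3326595 replicate 2), with edgeR adjusted p from 0.0538 to 0.203. Aldh1a1, likewise chosen for its low level in WT cells with DMSO, had 20 and 39 counts over the groups. It did not pass (log2 fold change 0.84 ± 0.42, edgeR adjusted p = 0.0912). Cntn3 fell in WT cells with GSK3326595, from 76.6 ± 0.819 to 56.9 ± 1.42 CPM, a log2 fold change of -0.43 ± 0.039 (edgeR adjusted p = 2.62e-19). Its high level in WT cells with DMSO is part of what chose it.

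With GSK3326595 in WT cells 5 of the 10 genes were called, where 41.1% of all genes were. With only the compared groups in the fit it was 2, Cntn3 and P2ry14, of the 6 that passed the filter. With MRTX1719 in WT cells none of the 10 was called by edgeR, where 7.53% of all genes were. Of the 10, only Rgs18 had an unadjusted p under 0.05 (0.0312), and DESeq2 gave an adjusted p for 1 of the 10 and called none. Cntn3 was higher with MRTX1719 than with GSK3326595 in WT cells, at 72.3 ± 1.79 CPM (SD, n = 2), by 0.35 ± 0.043 (edgeR adjusted p = 8.27e-12). Mme was called lower with MRTX1719 than with GSK3326595, at 1 against 13 counts, a ratio of 8.70 (95% counting interval 1.31 to 370; edgeR adjusted p = 0.0292). That call was lost under DESeq2 and without WT GSK3326595 replicate 2 or WT MRTX1719 replicate 3. Mme passed the filter only through the KO line, so this call too is given as a description. Between the inhibitors 3 of the 10 genes, Mme among them, were called in WT cells, beside 30.0% of all genes.

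**Figure D4:**
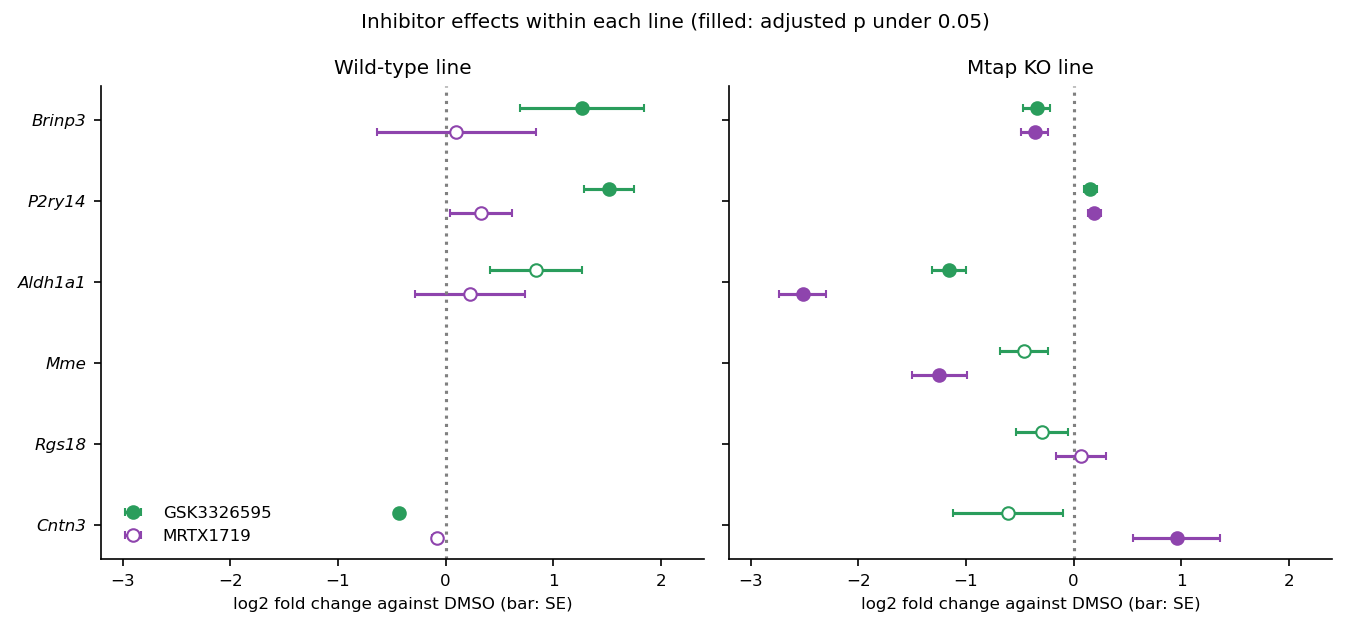
Log2 fold change of each inhibitor against DMSO within the WT line (left) and the KO line (right) for 6 genes, with the SE as a bar; filled points passed the adjusted p of 0.05. Aldh1a1 lies at -1.16 and -2.52 in the KO line; Mme and Rgs18 are left out on the WT side, where they had 2 counts over the DMSO group.

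The difference of an inhibitor's effect between the lines was read for the 4 genes with more than 3 counts in each of the groups it uses. It equals the difference between the lines with the inhibitor minus that with DMSO, and the latter chose the genes, so a choice of extreme values by itself favours a smaller difference with the inhibitor. With GSK3326595 it passed for 3 of the 4, beside 42.2% of all genes. The effect in KO minus that in WT was -1.36 ± 0.24 for P2ry14, -2.00 ± 0.45 for Aldh1a1 and -1.61 ± 0.59 for Brinp3 on the log2 scale (edgeR adjusted p = 8e-08, 5.7e-05 and 0.0108). With MRTX1719 it passed for 2 of the 4, beside 58.2% of all genes, at -2.75 ± 0.55 for Aldh1a1 and 1.04 ± 0.41 for Cntn3 (edgeR adjusted p = 1.68e-05 and 0.0179). Brinp3 passed the filter only through the KO line, so its difference is given as a description. The difference of Brinp3 was lost without WT GSK3326595 replicate 3, that of Aldh1a1 with MRTX1719 without WT MRTX1719 replicate 1 (edgeR adjusted p = 0.0519), and that of Cntn3 without KO MRTX1719 replicate 1 or 3.

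Ordered by mean level, the groups of a gene's higher line came before those of the other line. For Cntn3 the order was WT with DMSO, MRTX1719 and GSK3326595, then KO with MRTX1719, DMSO and GSK3326595, and only the ranges of the lowest pair overlapped. For Aldh1a1 the 3 KO groups came first without overlapping each other, and KO with MRTX1719, at 0.731 to 1.14 CPM, touched the range of WT with GSK3326595, at 0.369 to 0.731 CPM, at 1 library each. For Lyplal1, Tspan15 and Hc the 3 WT groups overlapped their neighbours in the order, as did the 3 KO groups.

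Genomic position was not used to choose the genes. Within 5 protein-coding genes on each side, by the gene order of an annotation of the older GRCm38 build, there were 90 other genes, 52 of them tested. With DMSO 17 were higher and 26 lower in KO cells, 82.7% called beside 73.2% of all genes, and 6 differed by at least 4-fold, 11.5% beside 4.02% of all genes. That share was 21.4% of 28 tested with 3 genes on each side and 7.62% of 105 tested with 10. Brinp3 and Rgs18 are themselves next to each other, and Rgs21, which encodes a related regulator of G protein signalling and lies on the other side of Rgs18, had 2 counts over the WT and 48 over the KO group with DMSO. Rgs21 stayed higher in KO cells with GSK3326595 and MRTX1719 (log2 3.06 and 3.02, edgeR adjusted p = 5.81e-08 and 1.01e-08), so 3 genes in a row shared the direction. The same lines already differed in Rgs21 with DMSO, so these calls were likely beforehand and are given as a description.

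The other neighbours with at least a 4-fold difference were Pdzrn3, Bche, Tgfb2, Tacr2 and Plch1. Pdzrn3, a ubiquitin ligase gene next to Cntn3, went the opposite way to it, from 0.585 ± 0.142 to 8.75 ± 0.531 CPM (SD, n = 3 each). Tgfb2, a growth factor gene next to Lyplal1, was lower in KO cells, at 1.90 against 9.46 CPM in WT (log2 -2.33 ± 0.15, edgeR adjusted p = 1.57e-36). Tacr2, a tachykinin receptor gene next to Tspan15, had 15 counts in WT and 2 in KO cells. Bche, the butyrylcholinesterase gene 3 genes from Wdr49, had 45 and 1. Plch1, a phospholipase C gene 2 genes from Mme, had 7 and 37.

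Of the 18 genes directly beside the 10, other than Brinp3 and Rgs18, 10 were tested. With DMSO 9 of them were called in the direction of their neighbour (Pdcd10, Tgfb2, Tacr2, Traf1, AI182371, Pla2g4a, Anxa1, Gpr149 and Rgs21) and Pdzrn3 in the opposite direction, where 36.2% of all genes were called higher and 37.0% lower. With MRTX1719 Pdcd10 was not called (log2 -0.04, edgeR adjusted p = 0.294). Their size varied from the log2 4.45 of Rgs21 to the 0.26 of Pla2g4a and -0.32 of Pdcd10. Traf1, a signalling adaptor gene next to Hc, was at 83.5 CPM in WT and 26.6 CPM in KO cells, and Gpr149, a receptor gene next to Mme, at 19.1 and 42.1 CPM. The other 8 were under the filter, among them Serpini2 next to Wdr49 with 7 counts in WT and 0 in KO cells.

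**Figure D5:**
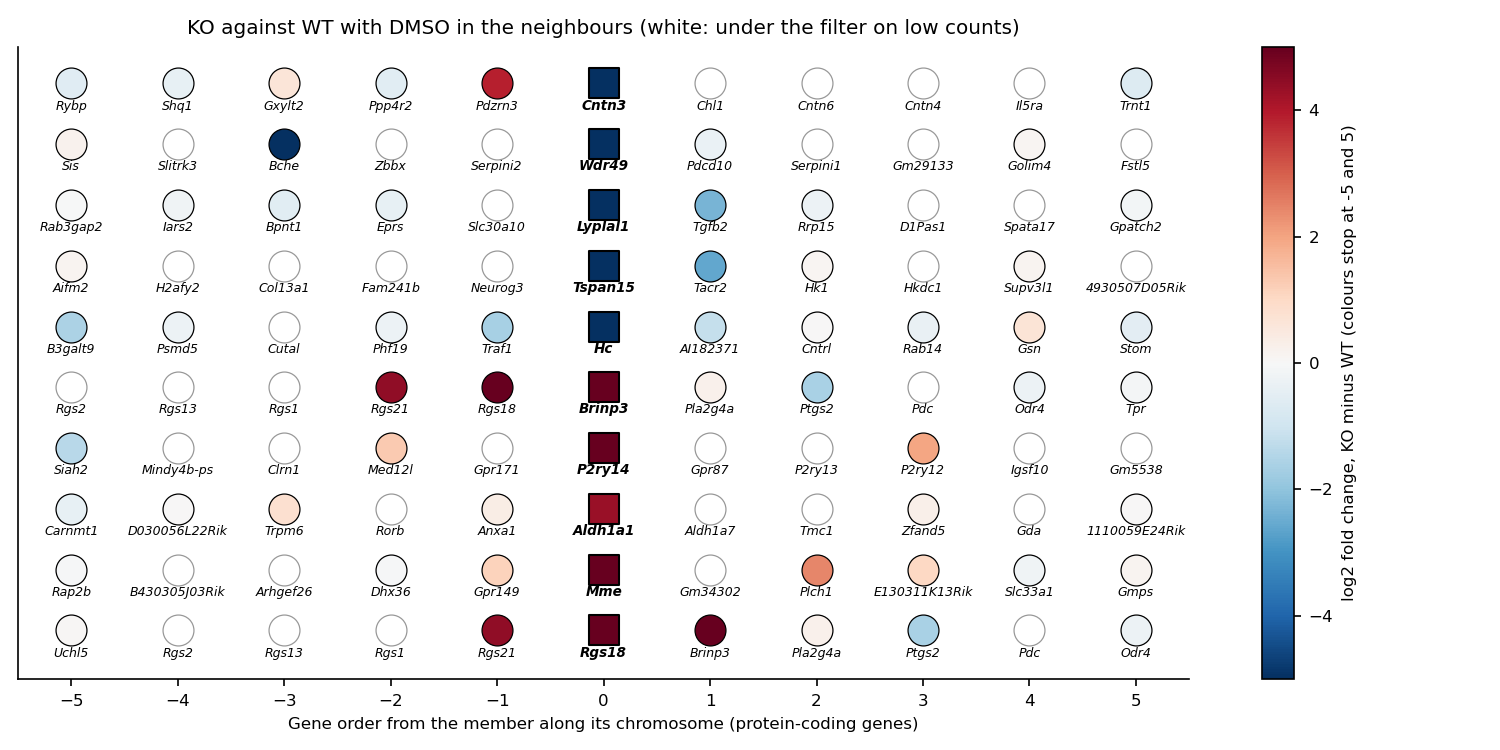
Log2 fold change of KO minus WT with DMSO, as colour, for each gene (square, centre) and the 5 protein-coding genes on either side in gene order (circles); white circles were under the filter on low counts and colours stop at -5 and 5. Red neighbours stand beside Cntn3 (Pdzrn3), Rgs18 (Rgs21) and Mme (Plch1), and blue ones beside Lyplal1 (Tgfb2), Tspan15 (Tacr2) and 3 genes from Wdr49 (Bche).

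Relatives of the 10 genes, 83 genes in 9 lists chosen by family, included 44 that were tested. With DMSO 20 were higher and 16 lower in KO cells, 81.8% beside 73.2% of all genes, with a median log2 difference of 0.21 beside 0.01 over all genes. No other contactin passed the filter (5 genes, each with at most 0.0369 CPM in any group), so Cntn3 was the only contactin measured. Of the relatives of Lyplal1, Lypla1, Lypla2 and Abhd17c, enzymes that remove fatty acids from proteins, were lower in KO cells with DMSO, with log2 differences of -0.31, -0.22 and -0.34, and 2 of 5 did not pass. Adam10, the partner of Tspan15, was at 188 and 191 CPM in WT and KO cells with DMSO (log2 0.02 ± 0.025, edgeR adjusted p = 0.483). Of the other tetraspanins that bind it, Tspan33, Tspan17 and Tspan14 were called lower (edgeR adjusted p = 0.0282, 0.0319 and 0.0452) and Tspan5 higher, while DESeq2 called 1 of these 5 genes.

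The complement genes, relatives of Hc, were split. Of 25, 12 were tested and 6 were higher and 4 lower in KO cells with DMSO, where 36.2% and 37.0% of all genes were. Serping1, an inhibitor of the C1 complex, was higher in KO cells, at 2.15 against 0.572 CPM, and C4b lower, at 0.0924 against 0.487 CPM. The serine proteases of the C1 complex, singled out after their values were seen, were higher in KO cells with DMSO and lower with MRTX1719. C1s1 was at 265 CPM in KO and 117 CPM in WT cells with DMSO, and at 60.1 and 102 CPM with MRTX1719, and C1ra was at 191 and 99.5 CPM, then 65.0 and 92.8 CPM. In the KO line 6 of the 12 fell with each inhibitor, while 3 rose; of all genes 25.1% fell and 27.7% rose with GSK3326595, and 33.6% fell and 37.0% rose with MRTX1719.

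Of 17 retinoid genes, relatives of Aldh1a1, 12 were tested, and with DMSO 8 were higher and 2 lower in KO cells, beside 36.2% and 37.0% of all genes. With GSK3326595 it was 8 and 1, beside 35.7% and 37.1%, and with MRTX1719 5 and 4, beside 36.8% and 38.3%. Dhrs3, which reduces retinaldehyde, was at 58.3 ± 1.73 CPM in KO and 23.5 ± 0.874 CPM in WT cells, and Rdh10, which makes retinaldehyde, at 102 ± 3.19 and 45.1 ± 0.436 CPM (SD, n = 3 each). Stra6, the receptor that takes up retinol, was at 4.41 CPM in KO cells with DMSO, 0.896 CPM with GSK3326595 and 0.148 CPM with MRTX1719. Its log2 fold changes of -2.28 and -4.77 (edgeR adjusted p = 1.84e-20 and 1.59e-32) were larger than those of Aldh1a1. With MRTX1719 8 of the 12 fell in the KO line and 1 rose, where 33.6% of all genes fell and 37.0% rose. With GSK3326595 4 fell and 1 rose, where 25.1% and 27.7% of all genes did. In WT cells none of the 12 was called with MRTX1719 by edgeR, where only 7.53% of all genes were. Of the 12, 3 had an unadjusted p under 0.05, and the smallest edgeR adjusted p was 0.132. DESeq2 called 0 of the 8 it gave an adjusted p.

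The remaining relatives had few measured genes. Brinp1 was higher in KO cells with DMSO, at 7.77 against 3.79 CPM (log2 1.04 ± 0.12, edgeR adjusted p = 8.68e-15). Of the P2Y receptors, P2ry2 was lower in KO cells, at 4.91 against 9.86 CPM, and P2ry12, 3 genes from P2ry14, higher at 12 against 3 counts (edgeR adjusted p = 0.0321). Of the metallopeptidases related to Mme, Ece2 was higher with DMSO (log2 1.91), Phex lower (-1.61) and Ece1 lower (-0.16). Of the small regulators of G protein signalling related to Rgs18, Rgs3 was higher (1.04), as was Rgs21, and Rgs16 lower (-0.73).

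The genes whose levels most resembled a member within the line where it was higher were named by the largest Pearson r of log2(CPM + 1) over the libraries of that line, as a description. For Cntn3 over the 8 WT libraries they were Ablim1 (r = 0.999) and H2-T10 (0.997), among 11971 genes. Over the 9 KO libraries, among 12088 genes, Aldh1a1 was most like Crot (0.996) and Gstm5 (0.996), Mme like Tpcn1 (0.987) and Zfp768 (0.986), P2ry14 like Hmga2-ps1 (0.978) and Fam151b (0.973), Brinp3 like Gatc (0.971) and Fbxl17 (0.964), and Rgs18 like Gbp11 (0.967) and Gm47976 (0.921). Over the WT libraries Wdr49 was most like Fndc3b (0.966) and Smyd5 (0.958), Lyplal1 like Acsf3 (0.951) and Lpxn (0.943), Tspan15 like Zscan21 (0.964) and Syt12 (0.914), and Hc like Spata5l1 (0.984; listed next, Gm36401, 0.975). For Aldh1a1 2059 genes had an r over 0.9 and for Rgs18 2, so the name at the top of such a list carries little for Aldh1a1. The libraries share their treatment groups, which these values follow.

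In pmel-1 T cells, normalized and fitted apart from the MC38 cells, 2 of the 10 genes passed the filter. P2ry14 was at 157 ± 5.73 CPM with DMSO, 124 ± 3.00 with GSK3326595 and 148 ± 7.90 with MRTX1719 (SD, n = 3 each). It fell with GSK3326595, with a log2 fold change of -0.34 ± 0.041 (edgeR adjusted p = 1.58e-11), and its -0.08 ± 0.041 with MRTX1719 did not pass (0.108; 0.00468 with unscaled library totals and 0.0388 without T cell MRTX1719 replicate 1). Rgs18 was at 4.36 ± 0.267, 3.59 ± 0.209 and 3.75 ± 0.656 CPM, with edgeR adjusted p = 0.2 and 0.324. So 1 of the 2 genes tested was called with GSK3326595 and 0 of 2 with MRTX1719, beside 52.8% and 37.4% of all genes tested in T cells. With MRTX1719 DESeq2 also called 0, and 1 of the 2 had an unadjusted p under 0.05 (P2ry14, 0.0483). The other 8 genes had 0 to 12 counts per group, and Brinp3 had none in any T cell library.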

How the data were processed

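Deposited were raw gene counts by Ensembl identifier and the authors' normalized signal by gene name, equal to the counts over 1 size factor per library within 1e-06. Names came from rows of equal value, and otherwise from a table of identifiers and symbols. TopHat2 2.0.10, Bowtie2 2.1.0, DESeq 1.18.0 and GRCm39 are named in the submitters' processing notes; counter, annotation and strand setting: not given in the sources used here. Poly(A) libraries were directional, per the labels' protocols.

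Counts were fitted in R 4.3.3 with edgeR 4.0.16 (TMM, filterByExpr, robust quasi-likelihood test, Benjamini-Hochberg adjustment at 0.05), all groups of a table together and no covariates; DESeq2 1.42.0 was an alternative. Of 56562 identifiers, 14835 passed the filter in MC38 and 13753 in T cells. The fit was tested on simulated data. Other alternatives were RLE size factors, unscaled totals, other filters, a replicate block, only the compared groups, and each library left out in turn. Ratios are of summed counts over TMM-scaled totals with 95% counting intervals, and SE are Wald-type. Chi-square per gene between replicates, 1 under sampling noise alone, was 1.38 to 2.68 in MC38 and 1.90 to 3.50 in T cells.

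The 10 genes and the gene lists were chosen with earlier results of these data known. Named are all 10; per family the 3 called genes with the largest difference between the lines with DMSO; neighbours past 4-fold and those directly beside; the 5 highest on-off genes per direction; and the 2 most alike per gene. 1 gene that the rule selects is not reported here. Adam10, Tspan14, C1ra, C1s1 and Med12l were added after their values were seen.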

Additional observations from a re-analysis of the deposited data

Results flagged for a closer look

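Each of these results differed between the lines by a test of the difference itself, the inhibitor's log2 effect in KO minus that in WT cells. With GSK3326595 the difference was -1.61 ± 0.59 for Brinp3 (SE; edgeR adjusted p = 0.0108), called lower in the KO line and higher in the WT line by edgeR. DESeq2 gave neither call (adjusted p = 0.114 and 0.0829). Brinp3 passed the filter only through the KO line, so its WT call is a description. The difference with GSK3326595 was -1.36 ± 0.24 for P2ry14 (edgeR adjusted p = 8e-08), which rose in both lines. It was -2.00 ± 0.45 for Aldh1a1 (5.7e-05), which fell in the KO line and did not pass in the WT line. With MRTX1719 the difference was 1.04 ± 0.41 for Cntn3 (edgeR adjusted p = 0.0179) and -2.75 ± 0.55 for Aldh1a1 (1.68e-05). Each value is the difference between the lines with the inhibitor minus that with DMSO, and the DMSO difference chose the genes. A choice of extreme values by itself favours values of the sign seen here, and the size of that part was not tested.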

How the results depend on the processing

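All 10 genes kept their call between the lines with GSK3326595 and with MRTX1719 under every alternative run, calls that the choice of the genes made likely. The number called with GSK3326595 in WT cells went from 5 to 3 under DESeq2, 3 with no filter on low counts and 2 with only the compared groups in the fit, where 6 of the 10 passed the filter, and ran from 2 to 4 when 1 library was left out. With GSK3326595 in KO cells it went from 3 to 1 under DESeq2 and from 1 to 3 with 1 library left out. The MRTX1719 effect differed between the lines for 2 of 4 genes and for 1 with no filter, 1 to 2 with 1 library left out. With MRTX1719 in T cells 0 became 1 with unscaled library totals, 0 to 1 with 1 library left out. The 2 family genes called with MRTX1719 in WT cells were 1 to 2 with 1 library left out. On-off genes lost in the KO line went from 18 to 5 (off at 0 counts) and 2 (on at 5 CPM), and those gained from 2 to 0 and 0; with 1 library left out they were 17 to 25 and 2 to 3. The cause of the other shifts was not tested. Where 1 WT MRTX1719 library was left out, the lone one was assumed to vary like the other groups.

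The replicate numbers did not pair the libraries: deviations from the group means correlated at -0.049 to 0.045 for equal numbers and -0.037 to 0.062 for others, and 5 of 17 libraries correlated best with one of their own number. The replicate block left every count of calls among the 10 genes as it was, for example 5 with GSK3326595 in WT cells and 6 with MRTX1719 in KO cells. Low counts limit Mme, Rgs18 and Brinp3 in WT cells and Wdr49, Lyplal1, Hc and Tspan15 in KO cells.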
